A study of Mus musculus with 6 samples.

Results

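Replacement histone variants are histones whose genes lie outside the replication-dependent histone clusters and whose messages generally end in a poly(A) tail. The rows of the deposited table were matched by Ensembl identifier to H1f0, H1fx (now H1f10), H2afz (H2az1), H2afv (H2az2), H2afx (H2ax), H2afy (Macroh2a1), H3f3a, H3f3b and Cenpa, under the older or the current symbol. All 9 genes were found among the 55538 genes of the table, each with 1 row. All 9 had a mean signal of at least 1 and were among the 21954 genes tested. The rule that picks them uses gene names and no measured value, and it was written with earlier results of these data known.

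The samples were primary cortical neurons of C57BL/6 mouse embryos, taken at embryonic day 14.5, which had rested for 2 h at 37 °C after isolation. Control cells were then held at 37 °C for 60 min, and heated cells were held at 42 °C for 15 min or for 60 min, with 2 libraries of total RNA in each of the 3 groups. The series is concerned with translation under heat stress, and the comparisons of total RNA ask which transcripts differ in abundance after each time of heating. Control cells held for 15 min are not among the groups, so heat and time in culture cannot be told apart for the 15 min libraries. The labels do not say whether the 2 libraries of a group came from separate cultures or animals, so p-values measure the spread between these libraries only, which may be technical. All groups share the genotype, the tissue and a medium with serum, and the cells were not sorted. RNA recovered with ribosomes was not analysed here.

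The deposited values are a normalised signal of each gene, an abundance per transcript length on a scale close to TPM. The column totals ran from 892768 to 1056383, and the read depth is unknown. The 2 libraries of a group are called s1 and s2 after the column names. The labelled cell type was checked against lists of markers, summed in each library. The 11 neuronal genes summed to 1725 to 2497 and the 10 progenitor genes to 2538 to 3516. The 7 erythroid genes, mostly globins, summed to 256 to 506, the 6 genes of fibroblasts and meninges to 117 to 170.4, with Fn1 at 109 to 161, and the 5 of astrocytes to 53.2 to 97.4, with Gja1 at 47.8 to 94.3. The lists of the oligodendrocyte lineage, of microglia and macrophages and of endothelial and mural cells summed to 10.1 to 23.3, and 0 markers of any list were at 0 in any library. Control s1 differed from the other libraries: 29309 genes reached a signal of 1 in it, and 19035 to 21796 did so elsewhere. Abundant genes, those averaging 20 or more, were lower in it, at a median of 0.893 of their geometric mean over libraries, while the other libraries lay at 0.961 to 1.08. Mitochondrial ribosomal RNA was 12.9% of all signal in control s2 and 3.87% to 9.39% elsewhere.

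Most histone protein is made in S phase from replication-dependent genes. Their messages have no poly(A) tail and end in a conserved stem-loop that is bound by the stem-loop binding protein. Replacement variants are made through the cell cycle and also in cells that no longer divide, and they are loaded by dedicated chaperones, such as HIRA and DAXX for H3.3 and HJURP for CENP-A. In neurons, which have left the cell cycle, H3.3 is known to become the main form of histone H3.

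The label of the group was read against the 3′ ends of the annotated transcripts. The protein-coding transcripts of the GENCODE annotation of GRCm38 were searched for the poly(A) signal AATAAA or ATTAAA on the sense strand within the last 40 bases. Among the 9 genes 7 held it (77.8%), as did 82.3% of 14775 coding genes tested. Of the 63 replication-dependent histone genes tested 14 held it (22.2%). For some of these genes the 30 bases around the signal are printed, because the label rests on how these messages end, with the signal in capitals:

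H1f0: aactttaaAATAAAactggaaaggaaaaaa
H1fx: ctggggcgcAATAAAcggttccaaccttga
H2afv: aAATAAAgaaactagcactagtgtgacaaa
H2afx: aattttATTAAAggatcgtttggttttgtt
H3f3a: tgaaaaatAATAAAagtaccaatagaagaa
Cenpa: aaaAATAAAaataattccttaatgaaagaa

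H2afy and H3f3b had no such letters in the window searched, which says only that these letters are not in these annotated ends. The letters of the histone stem-loop, GGNNCTTTTNNGNNCC on the sense strand, were found in 42 of the 63 replication-dependent genes (66.7%) and in 0.394% of 14712 other coding genes. Among the replacement genes only H2afx held them, in a transcript that goes on for 822 bases behind the stem-loop and ends with the poly(A) signal above. H2afx is known for making both a short stem-loop message and a longer polyadenylated one, and gene-level values cannot separate these. The stem-loop of H2afx and that of Hist1h1c, the replication-dependent linker histone H1.2, are shown side by side with the matched letters in capitals:

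H2afx: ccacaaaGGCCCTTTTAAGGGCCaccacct
Hist1h1c: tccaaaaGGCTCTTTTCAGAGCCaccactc

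The annotated Hist1h1c transcript also runs on, for 840 bases after its stem-loop. The libraries were made by removing ribosomal RNA and not by selecting poly(A) tails, so they hold both classes of message, and tail length was not measured.

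None of the 9 replacement genes passed the test across all genes in any comparison. H1f0 was lower in both 60 min libraries than in every other library, and H2afx was lower there than in both controls. These were the 2 of the 9 with both 60 min libraries below both controls, as were 19.8% of all genes tested and 13.7% of abundant genes. After 15 min, 6 of the 9 genes, led by H3f3b, had both heated libraries above both controls, as did 15.1% of all genes tested and 31.7% of the 6772 abundant genes with an average of 20 or more, which include all 9. The tests are limma's, on log2(value + 1), two-sided, with Benjamini-Hochberg adjustment over the 21954 genes tested and a threshold of 0.05 on the adjusted p. The 2 comparisons with control share the control libraries. Fewer cells of a type and less RNA per cell cannot be told apart in any of these values.

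**Figure D1:**
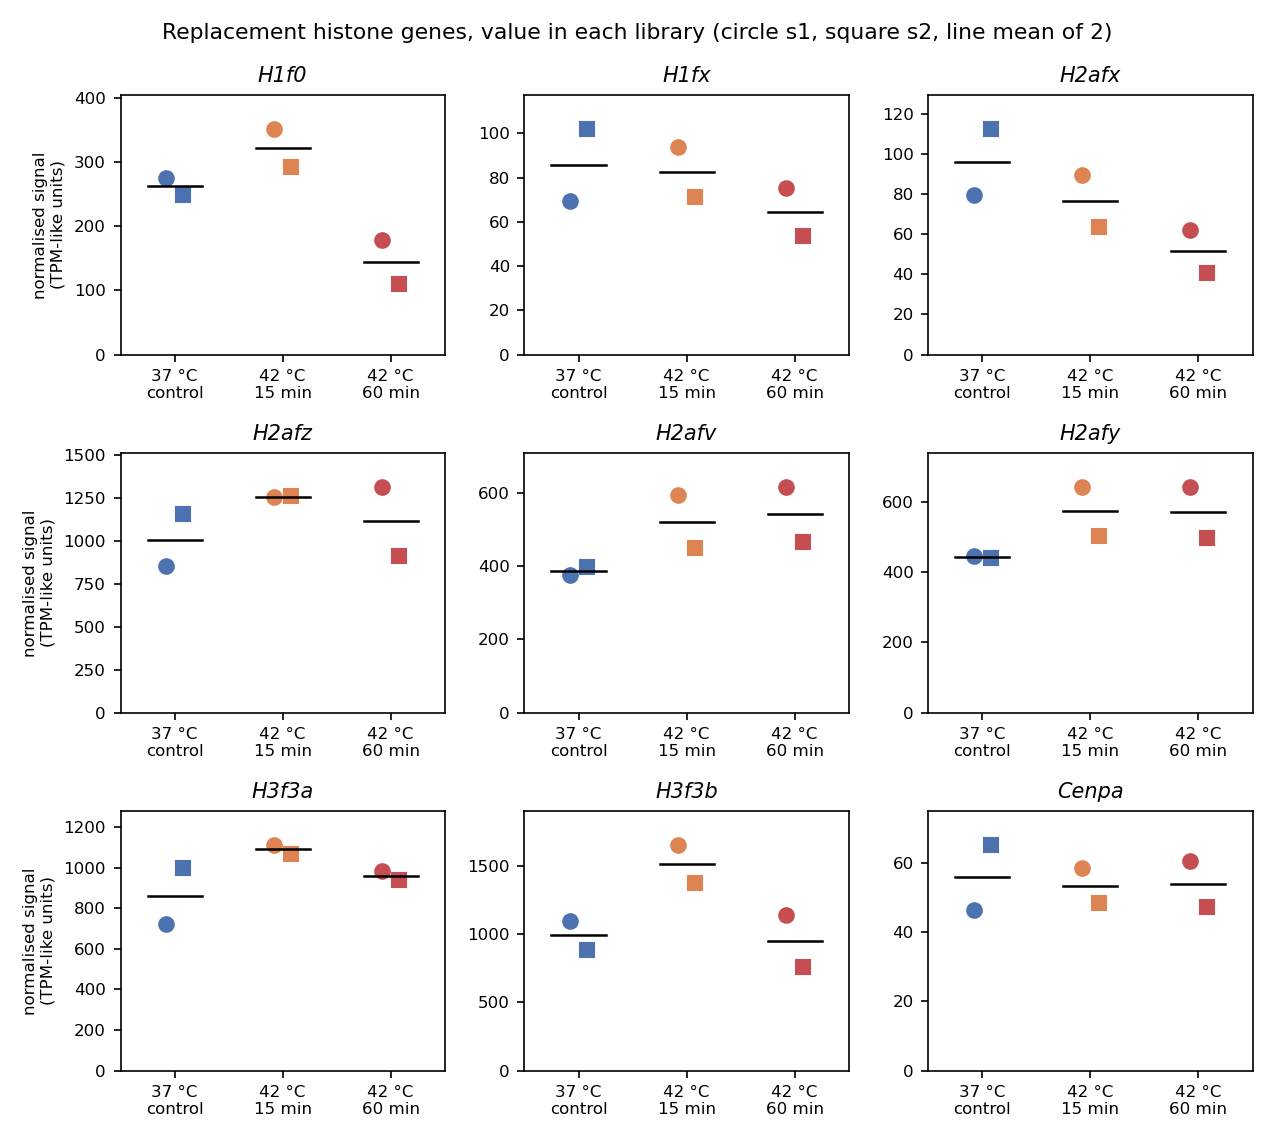
Normalised signal (y axis, TPM-like units, from 0) of each replacement histone gene in the 6 libraries, by group on the x axis; circles are s1, squares are s2 and lines are the mean of 2 libraries. H1f0 lies between 109.9 and 179 after 60 min and between 249 and 352 in the other 4 libraries, and H3f3b is highest in both 15 min libraries, at 1653 and 1373.

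The levels fell into 3 tiers. H3f3b, H2afz and H3f3a had means over the 6 libraries of 1152, 1125 and 971 and ranked 90, 92 and 117 among all genes. H2afy and H2afv followed at 529 and 484, and H1f0 at 243. H1fx, H2afx and Cenpa had means of 77.5, 74.7 and 54.5. The ranges of neighbours within the highest tier overlapped, as did those of H2afy with H2afv and those of the 3 lowest genes. The highest library of H1f0, at 352, lay under the lowest of H2afv, at 377. Its lowest, at 109.9, lay under the highest of H2afx, at 113, so the middle and lowest tiers met.

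H1f0 (ENSMUSG00000096210, chromosome 15) encodes H1.0, a linker histone that binds DNA between nucleosomes and accumulates in cells that have stopped dividing. Its signal was 276 and 249 in the controls, 352 and 292 after 15 min, and 179 and 109.9 after 60 min. Both 15 min libraries lay above both controls and both 60 min libraries lay below them, with no overlap between any 2 groups. Taken singly, 15.1% of all genes tested and 31.7% of abundant ones had the first trait, and 19.8% and 13.7% the second. The share of genes with both was not counted. The H1f0 group means were 262 ± 18.9, 322 ± 42.5 and 144 ± 48.7 (SD, n = 2 each). On the log2 scale the difference of 60 min from control was −0.90 ± 0.27 (SE) (limma adjusted p = 0.476). The difference of 60 min from 15 min was −1.19 ± 0.27 (limma adjusted p = 0.501), and that of 15 min from control was 0.29 ± 0.27 (adjusted p = 0.756). H1f0 therefore missed the threshold in all 3 comparisons. Differences were also taken relative to the median of all genes, over the deposited values and 3 other scalings. That of 60 min from control lay between −1.06 and −0.74. That of 15 min from control lay between 0.018 and 0.46, lowest under quantile normalisation. In the deposited values the 15 min median was −0.098 for all genes and 0.15 for abundant ones. Without 60 min s2 the difference of 60 min from control was −0.55.

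H1fx (ENSMUSG00000044927, chromosome 6) encodes H1.10, the other linker histone of the group. It had 69.4 and 102 in the controls, 93.8 and 71.0 after 15 min, and 75.4 and 53.4 after 60 min. The 3 groups overlapped, and the differences from control were −0.044 ± 0.29 at 15 min and −0.40 ± 0.29 at 60 min (limma adjusted p = 0.968 and 0.790). The ratio of H1f0 to H1fx was 3.97 and 2.44 in the controls, 3.76 and 4.12 after 15 min, and 2.37 and 2.06 after 60 min, so both 60 min libraries had the lowest ratios.

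H2afx (ENSMUSG00000049932, chromosome 9) encodes H2A.X, the H2A variant that is phosphorylated around DNA breaks. Its signal was 79.7 and 113 in the controls, 89.6 and 63.4 after 15 min, and 62.3 and 40.8 after 60 min. Both 60 min libraries lay below both controls and below both 15 min libraries, while the 15 min libraries overlapped the controls. The difference of 60 min from control was −0.90 ± 0.31 on the log2 scale (limma adjusted p = 0.534), and that of 60 min from 15 min was −0.57 ± 0.31 (adjusted p = 0.895). Without 60 min s2 these were −0.60 and −0.27. At 15 min the difference from control was −0.33 ± 0.31 (adjusted p = 0.756), and it changed sign, to 0.015, under median-of-ratios scaling over genes above 0. Runs of 31 bases shared with 25 other genes, 18 of them replication-dependent histones, made up 8.86% of the 31-base runs in the coding transcript. Those 25 genes summed to 13072 and 10575 in the controls, 12197 and 6759 after 15 min, and 10005 and 5304 after 60 min, so the division of reads between them and H2afx is uncertain. What this sharing contributes to the lower H2afx values was not tested.

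H2afz (ENSMUSG00000037894, chromosome 3) and H2afv (ENSMUSG00000041126, chromosome 11) encode H2A.Z.1 and H2A.Z.2, which are placed at promoters and regulatory regions by the SRCAP and EP400 complexes. H2afz had 855 and 1158 in the controls, 1256 and 1258 after 15 min, and 1313 and 912 after 60 min. H2afv had 377 and 397 in the controls, 594 and 451 after 15 min, and 618 and 467 after 60 min. H2afv was above both controls in all 4 heated libraries, whereas H2afz was above them at 15 min and overlapped them at 60 min. The differences of H2afv from control were 0.42 ± 0.24 and 0.47 ± 0.24 at 15 and 60 min, with limma adjusted p of 0.747 and 0.688. Those of H2afz were 0.34 ± 0.27 and 0.14 ± 0.27, with adjusted p of 0.747 and 0.916. H2afz made up 69.4% and 74.5% of the summed H2A.Z signal in the controls, 67.9% and 73.6% after 15 min, and 68.0% and 66.1% after 60 min.

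The H2A.Z genes code for nearly the same protein. Their coding sequences, without the stop codon, are 384 bases long and differ at 80 bases, an identity of 79.2%. Of 128 codons 3 differ in the amino acid they encode. The first 90 coding bases are shown because the separate values of these genes rest on such differences, with the 19 bases that differ in capitals:

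H2afz: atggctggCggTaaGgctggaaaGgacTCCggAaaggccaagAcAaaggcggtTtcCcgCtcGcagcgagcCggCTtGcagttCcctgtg
H2afv: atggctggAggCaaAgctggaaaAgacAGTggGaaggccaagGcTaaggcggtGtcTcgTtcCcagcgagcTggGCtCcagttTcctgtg

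H2afz shared 32.7% of its 31-base runs with 4 pseudogenes, whose summed signal was only 2.99 to 4.98 in any library. H2afv shared 0.981%, with 4 genes that summed to 205.4 to 258.

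H2afy (ENSMUSG00000015937, chromosome 13) encodes macroH2A1, an H2A with a large additional domain that is enriched on the inactive X chromosome and in silent chromatin. It had 446 and 439 in the controls, 642 and 504 after 15 min, and 643 and 499 after 60 min. All 4 heated libraries were above both controls, which differed from each other by little. The differences from control were 0.36 ± 0.23 at 15 min and 0.35 ± 0.23 at 60 min (limma adjusted p = 0.747 and 0.758). In each heated group the s1 library of H2afy and of H2afv was well above s2. The correlation of these genes with each other over the 6 libraries was the highest among the 9 (Pearson r of 0.988 over 6 libraries, a description of libraries that share depth and scaling), and the lowest was −0.21 between H2afv and H2afx.

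H3f3b (ENSMUSG00000016559, chromosome 11) and H3f3a (ENSMUSG00000060743, chromosome 1) encode the same protein, H3.3, the replacement form of histone H3. H3f3b had 1099 and 885 in the controls, 1653 and 1373 after 15 min, and 1140.2 and 761 after 60 min. H3f3a had 725 and 997 in the controls, 1113 and 1069 after 15 min, and 983 and 941 after 60 min. Both genes had their highest 2 libraries at 15 min, and both overlapped the controls at 60 min. H3f3b had the largest difference of the 9 at 15 min, 0.61 ± 0.27 on the log2 scale (limma adjusted p = 0.747), and the difference of 60 min from 15 min was −0.69 ± 0.27 (adjusted p = 0.786), and −0.40 without 60 min s2. H3f3a differed by 0.36 ± 0.23 at 15 min and by 0.18 ± 0.23 at 60 min from control (limma adjusted p = 0.747 and 0.889). Relative to the median of all genes, the 15 min difference of H3f3b ran from 0.23 to 0.78 over the deposited values and 3 other scalings. In the deposited values that median was −0.098, and that of abundant genes was 0.15. The ratio of H3f3b to H3f3a was 1.52 and 0.888 in the controls, 1.49 and 1.28 after 15 min, and 1.16 and 0.809 after 60 min. Both heated groups overlapped the controls, and both 15 min libraries lay above both 60 min libraries.

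Without the stop codon, the H3.3 genes differ at 95 of 408 coding bases, an identity of 76.7%, and at 0 of 136 codons in the amino acid encoded. Their first 90 coding bases show how reads can be told apart although the protein is the same, with the 20 differing bases in capitals:

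H3f3a: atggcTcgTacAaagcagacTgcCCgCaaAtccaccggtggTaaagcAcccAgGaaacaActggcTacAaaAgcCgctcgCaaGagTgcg
H3f3b: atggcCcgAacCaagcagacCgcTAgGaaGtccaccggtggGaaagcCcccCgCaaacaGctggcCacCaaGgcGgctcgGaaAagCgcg

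H3f3a shared 17.7% of its 31-base runs with 55 pseudogenes, which summed to 18.8 to 49.0, and H3f3b shared 13.6% with 5 genes, which summed to 5.22 to 8.39. These sums were small beside the signal of either gene.

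Cenpa (ENSMUSG00000029177, chromosome 5) encodes CENP-A, the H3 variant that marks the centromere. It had 46.5 and 65.3 in the controls, 58.5 and 48.5 after 15 min, and 60.7 and 47.2 after 60 min. The groups overlapped in every comparison, and the log2 differences from control were −0.049 ± 0.25 and −0.041 ± 0.25 (limma adjusted p = 0.958 and 0.974). H1f0, H1fx, H2afy and H3f3a each overlap an annotated gene on the opposite strand, and these 4 genes were at 0.657 to 8.06 in the 6 libraries. The use of strand in the quantification is not given in the sources used here.

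**Figure D2:**
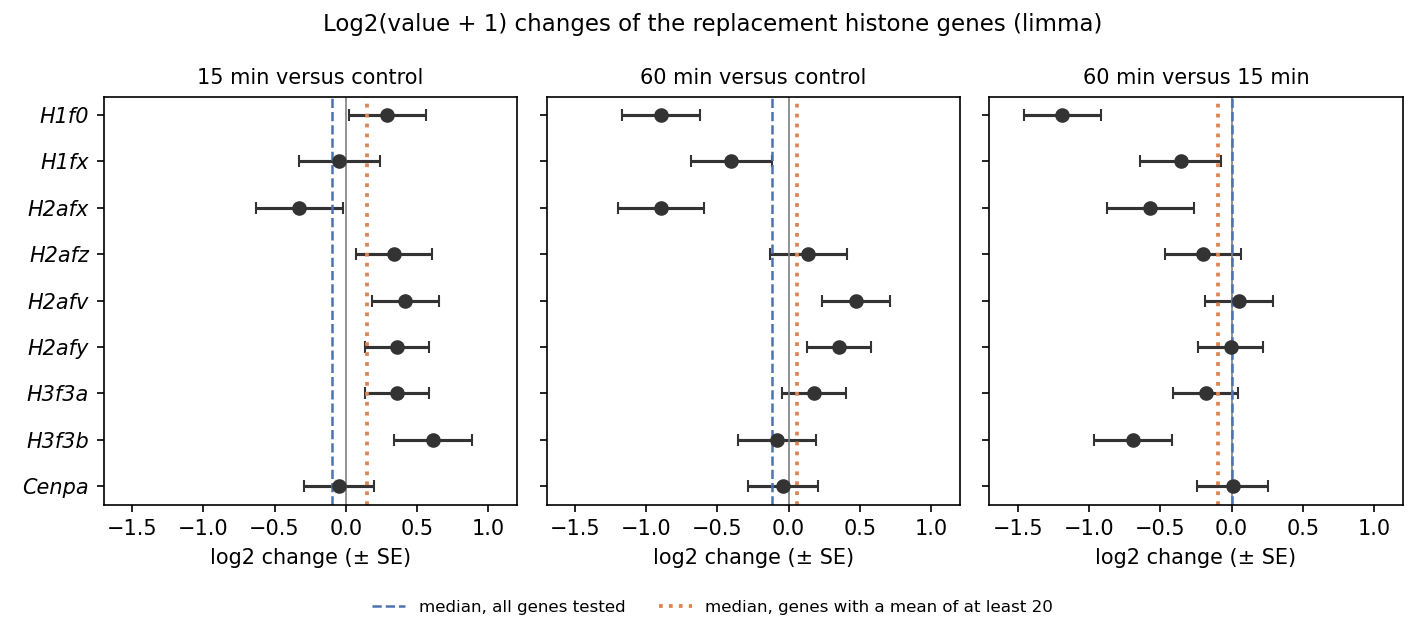
Log2 difference of each replacement histone gene (x axis, log2 of value + 1; bars are ± 1 SE from limma) in the 3 comparisons; dashed lines are the median of all genes tested and dotted lines that of genes with a mean of at least 20. H1f0 and H2afx both lie at −0.90 at 60 min against control, and H1f0 lies at −1.19 at 60 min against 15 min.

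Counts of these genes were read beside those of the whole table. For 15 min against control, 0 of 9 passed the adjusted threshold in limma, as did 0 of 21954 genes (0%). Both heated libraries were above both controls for 6 of 9, against the 15.1% of all genes given above, and below them for 0 of 9, against 18.9%. An unadjusted p under 0.05 was found for 0 of 9 and for 3.95% of all genes. Abundant genes as a whole leaned upward at 15 min: 31.7% were above and 4.90% below both controls. The median log2 difference was 0.34 for the 9, 0.15 for those abundant genes and −0.098 for all genes.

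For 60 min against control, 0 of 9 passed, against 0.041% of all genes. Without overlap, 2 of 9 were higher, H2afv and H2afy, against 12.8% of all genes, and 2 were lower, H1f0 and H2afx, against 19.8%. Among abundant genes 22.9% were higher and 13.7% lower without overlap. An unadjusted p under 0.05 was found for these 2 lower genes, against 8.34% of all genes. The median was −0.041 for the 9, 0.062 for abundant genes and −0.12 for all genes. For 60 min against 15 min, 0 of 9 passed, against 0.0182% of all genes. None of the 9 was higher without overlap, against 25.9% of all genes and 12.9% of abundant ones. Without overlap 4 were lower, H1f0, H2afx, H3f3a and H3f3b, against 22.6% of all genes and 29.4% of abundant ones. An unadjusted p under 0.05 was found for H1f0 and H3f3b, against 6.19% of all genes. The median was −0.20 for the 9, −0.094 for abundant genes and 0.00087 for all genes.

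Between the 2 libraries of a group, 8 of the 9 genes were higher in s1 than in s2 after 15 min and 9 after 60 min, while 3 were so in the controls. Abundant genes as a whole went the same way, with 56.6%, 61.3% and 35.3% of them higher in s1 after 15 min, after 60 min and in the controls. Over all genes tested these shares were 46.75%, 51.5% and 58.0%, in the same order. The 30 genes of S phase and mitosis, most of which peak in cycling cells, also summed higher in s1 than in s2 of each group, at 2265 and 1831 in the controls, 2869 and 1857 after 15 min, and 2561 and 1685 after 60 min. The part of such a difference in the members' values was not tested. Neural progenitor markers were lower in 7 of 10 genes at 60 min, beside 62.4% of all genes tested and 42.3% of abundant ones, with a median of −0.32 and 0 past the threshold. At an unadjusted p under 0.05 in limma 4 were lower and 0 higher. Of all genes 5.41% were lower at such a p, and of abundant ones 4.86%. The sums of these 10 markers were 2538 and 2954 in the controls, 3516 and 3080.4 after 15 min, and 3211 and 2782 after 60 min. Vim alone, at 1413 to 2200 over the libraries, made up much of them. The part of these cells in the values of H1f0 and H2afx was not tested. Erythroid markers were lower in 6 of 6 tested genes at 15 min, beside 59.4% of all genes, with a median of −0.71, 0 past the threshold and 3 at an unadjusted p under 0.05. Their sums were 343 and 506 in the controls, 256 and 309 after 15 min, and 366 and 306 after 60 min, and their part in the 15 min values was not tested.

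The replication-dependent genes, the other class of histone message, had a lower median log2 difference from control after heat than the replacement genes. At 15 min 58 of the 63 tested were below control in value, with 42 below without overlap, and at 60 min 59 were, with 51 without overlap. Of all genes tested 59.4% and 62.4% were below control at the 2 times, and 18.9% and 19.8% without overlap. Of the 63, 0 passed the adjusted threshold in either comparison, and 30 and 44 were lower at an unadjusted p under 0.05, beside 1.86% and 5.41% of all genes. At 60 min 1 was higher at such a p: Hist1h4n, an H4 gene, had 26.0 and 12.8 in the controls, 32.3 and 26.9 after 15 min, and 137 and 92.8 after 60 min, a log2 difference from control of 2.56 ± 0.36, the largest of the list in size. Their median log2 difference was −0.68 at 15 min and −1.04 at 60 min, against 0.34 and −0.041 for the 9 replacement genes. Over the deposited values and 3 other scalings the median of the replication-dependent genes ran from −0.92 to −0.33 at 15 min and from −1.18 to −0.84 at 60 min. That of the 9 ran from 0.069 to 0.68 at 15 min and took both signs at 60 min, from −0.13 to 0.15. Without control s1 the medians at 15 min were −0.90 and 0.13. The difference between the classes was not tested. These genes are described here with earlier results of the same data known.

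**Figure D3:**
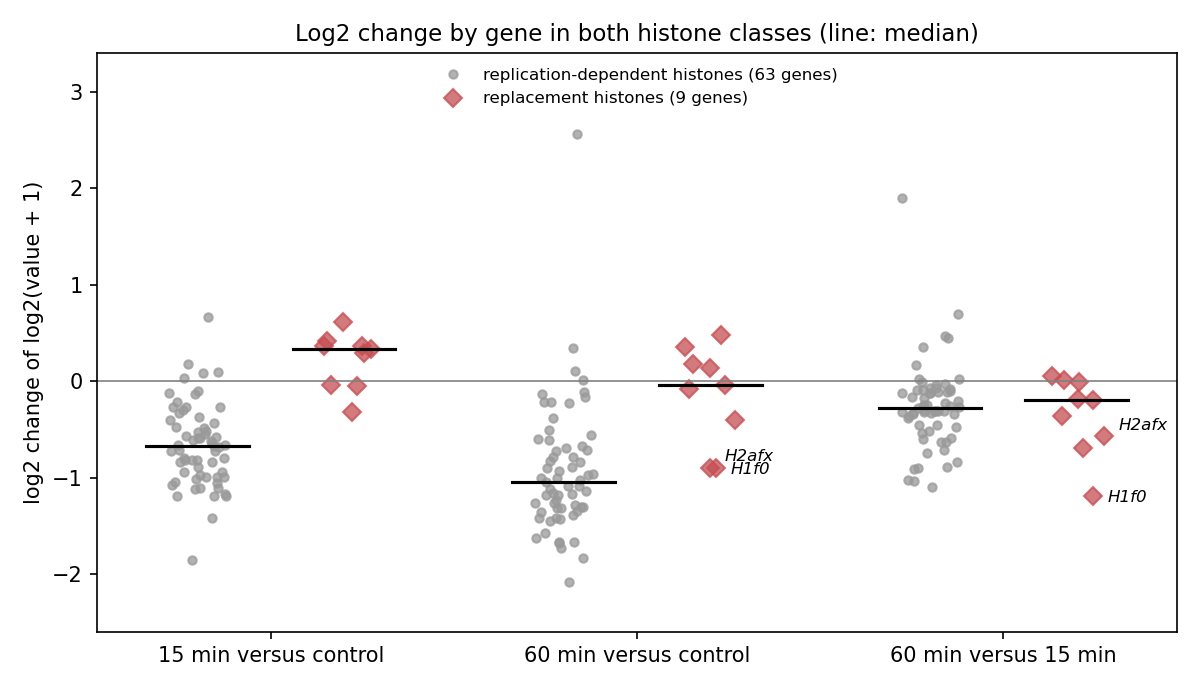
Log2 difference (y axis, log2 of value + 1) of each of 63 replication-dependent genes (grey circles) and 9 replacement genes (red diamonds) in the 3 comparisons; lines are medians. The medians are −0.68 and 0.34 at 15 min and −1.04 and −0.041 at 60 min against control, and H1f0 and H2afx, at −0.90, lie at 60 min among the replication-dependent genes.

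The linker histones were also compared gene by gene. Hist1h1c had 486 and 690.05 in the controls, 247 and 259 after 15 min, and 143 and 129 after 60 min. Its log2 difference at 60 min was −2.09 ± 0.22 (limma adjusted p = 0.0909), the smallest p of the replication-dependent list. The other 4 somatic H1 genes, Hist1h1a, Hist1h1b, Hist1h1d and Hist1h1e, had differences of −0.71, −1.68, −1.63 and −1.67 at 60 min, and all 4 were also below control in mean log2 value at 15 min. H1f0 shared the direction of these genes at 60 min, where its −0.90 was further from control than the −0.71 of Hist1h1a. It did not share it at 15 min, where both of its heated libraries were above control. H1fx, at −0.40, was nearer to control at 60 min than any of these replication-dependent genes.

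The replacement genes made up a greater share of each class signal in every heated library than in either control. H3f3a and H3f3b gave 25.5% and 19.7% of the summed H3 signal in the controls, 39.4% and 42.3% after 15 min, and 34.4% and 38.2% after 60 min. All 4 heated libraries were above both controls. The replication-dependent H3 genes, 12 in all, summed to 5332.5 and 7652 in the controls, 4262 and 3327 after 15 min, and 4054 and 2756 after 60 min. The H3.3 genes summed to 1823 and 1883, then 2766 and 2442, then 2123 and 1702, so at 15 min both sums moved away from control and at 60 min the replacement sums lay on either side of it.

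For linker histones the share of H1f0 and H1fx was 12.3% and 10.4% in the controls, 20.3% and 19.97% after 15 min, and 18.1% and 15.8% after 60 min. Here too all 4 heated libraries were above the controls, although H1f0 itself was lowest at 60 min. The 6 replication-dependent H1 genes summed to 2464 and 3027 in the controls, 1752 and 1456 after 15 min, and 1149 and 868 after 60 min. The 4 replacement H2A genes gave 11.9% and 16.7% of the H2A signal in the controls, 17.6% and 25.4% after 15 min, and 20.98% and 26.8% after 60 min, again above both controls in every heated library, at 15 min s1 by less than the gap between the controls. The 18 replication-dependent H2A genes summed to 13028 and 10526 in the controls, 12125 and 6701 after 15 min, and 9929 and 5254 after 60 min, so 15 min s1 lay between the controls. Shares within a library do not depend on a factor applied to the whole library. No test of these shares was made, since the genes were chosen with results known.

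**Figure D4:**
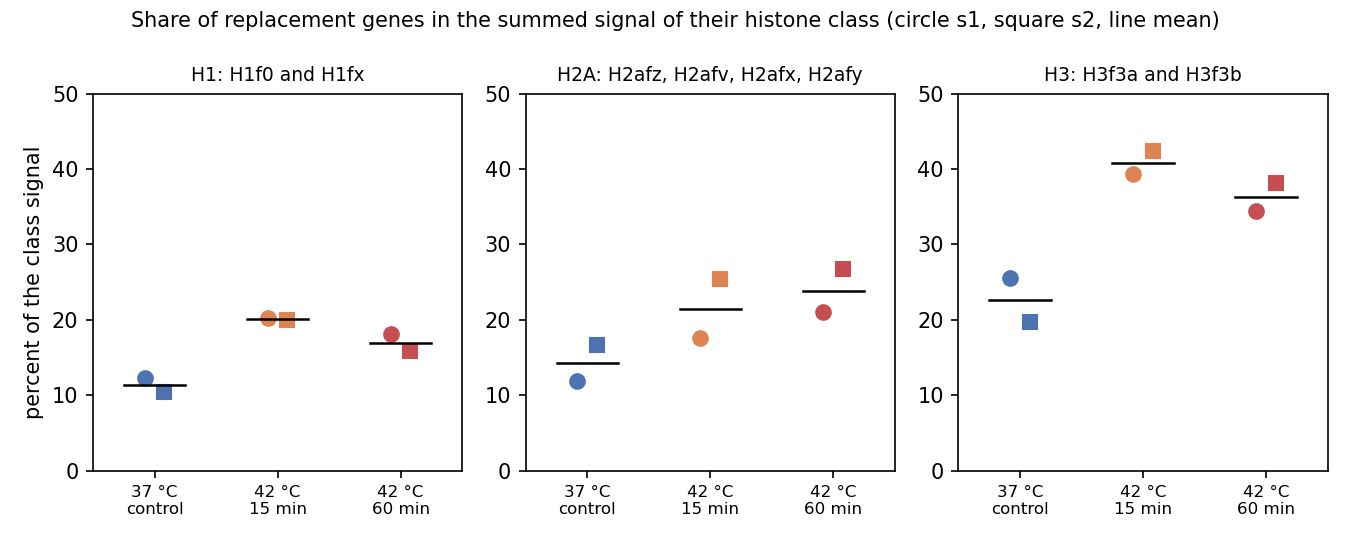
Percent of the summed signal of each histone class (y axis, from 0) that came from replacement genes, for H1, H2A and H3 in the 6 libraries; circles are s1, squares are s2, and lines are means of 2. In each class all 4 heated libraries lie above both controls, for H3 at 34.4% to 42.3% against 19.7% and 25.5%.

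Chaperones and deposition factors of histone variants had 0 of 35 genes past the threshold in each comparison. Their median differences were 0.14, 0.10 and −0.062 for 15 min against control, 60 min against control and 60 min against 15 min. Hjurp, the chaperone that loads CENP-A, had 130 and 132 in the controls, 118 and 114 after 15 min, and 81.0 and 79.5 after 60 min. Both of its 60 min libraries lay below the other 4, with a difference from control of −0.70 ± 0.17 (limma adjusted p = 0.408), while Cenpa itself did not differ beyond its spread. Oip5, a subunit of the Mis18 complex that prepares centromeres for CENP-A, had 5.87 and 6.43 in the controls and 2.72 and 1.72 after 60 min (limma adjusted p = 0.367). Npm1, a nucleolar histone chaperone, had 1038 and 814 in the controls, 1722 and 1194 after 15 min, and 1731 and 1236 after 60 min, and all 4 heated libraries were above both controls (adjusted p = 0.747 in limma at 15 min). Znhit1, a subunit of the SRCAP complex that deposits H2A.Z, had 42.0 and 47.5 in the controls and 58.3 and 57.6 after 15 min (limma adjusted p = 0.747).

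Of the 27 genes of centromere and kinetochore, 0 passed in each comparison, with medians of 0.15, −0.081 and −0.15 in the same order. At 60 min 4 of the 27 were higher than control without overlap and 1 was lower, beside 12.8% and 19.8% of all genes. The lower one was Cenpb, which binds a sequence in centromeric satellite DNA. It had 44.1 and 65.0 in the controls and 35.1 and 31.4 after 60 min (limma adjusted p = 0.539). Cenpm had 18.4 and 14.9 in the controls, 29.1 and 29.3 after 15 min, and 28.8 and 19.2 after 60 min. Every heated library of Cenpm lay above both controls (limma adjusted p = 0.747 at 15 min and 0.694 at 60 min). Of the 26 genes of 3′ end formation 0 passed, with medians of 0.082, 0.094 and −0.0062. Npat, which activates transcription of replication-dependent histone genes, had 11.2 and 12.6 in the controls and 7.25 and 8.53 after 60 min (limma adjusted p = 0.557). Cstf1, a cleavage stimulation factor that acts at poly(A) sites, had 23.1 and 28.8 in the controls and 18.6 and 16.4 after 60 min (limma adjusted p = 0.556). Of the 30 genes of S phase and mitosis 0 passed, with medians of 0.15, 0.033 and −0.15. E2f1, a transcription factor of S phase entry, had 23.3 and 21.3 in the controls and 13.9 and 10.1 after 60 min (limma adjusted p = 0.539), and Ccnb1, the mitotic cyclin B1, had 59.4 and 67.5 against 45.0 and 41.4 (adjusted p = 0.518).

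Of 11 further histone variants in the table only 5 were tested, and 0 passed. H2afj, an H2A variant, had 23.1 and 28.5 in the controls and 42.7 and 38.7 after 15 min, a difference of 0.65 ± 0.22 (limma adjusted p = 0.747). H2afy2, which encodes macroH2A2, had 98.3 and 101 in the controls and 137 and 112 after 15 min, and like its relative H2afy it was above both controls there (limma adjusted p = 0.747). H3f3c, an H3.3-like gene, had 1.96 and 17.7 in the controls and 1.99 and 9.47 after 15 min, while the 60 min libraries both list it at 0. Its values were low and lay far apart between the libraries of the control and 15 min groups.

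The promoters of 8 of the 9 genes were in the RefSeq table for GRCm38.p6, and H2afx was not. Each was searched from 250 bases before to 50 bases after the gene start. The heat shock element, written as GAANNTTCNNGAA or its reverse complement, was found in 0 of 8 and in 0.603% of 32851 promoters. The CCAAT box, on either strand, was found in H2afz, H2afv, H3f3a, H3f3b and Cenpa and in 37.4% of all promoters. TATAAA on the sense strand was found in H3f3b alone of the 8, 27 bases before the start, and in 13.6% of all. The 250 bases before the start of H3f3b, the gene with the largest difference at 15 min, are shown with its CCAAT boxes and TATA box in capitals, at chr11:116024505-116024754 on the minus strand of GRCm38.p6:

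H3f3b: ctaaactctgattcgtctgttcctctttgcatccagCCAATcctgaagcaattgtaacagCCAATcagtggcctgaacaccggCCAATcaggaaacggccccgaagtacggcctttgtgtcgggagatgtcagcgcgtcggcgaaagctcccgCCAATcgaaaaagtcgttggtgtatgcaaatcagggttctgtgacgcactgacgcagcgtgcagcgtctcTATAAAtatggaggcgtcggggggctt

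A match of these letters is a description and no measured binding site, and the motifs marked do not overlap each other.

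Genes most like H3f3b, the most abundant of the 9, and H1f0, the one with the smallest p at 60 min, were named by Pearson correlation of log2(value + 1) over the 6 libraries, among 11805 genes with a symbol and a mean of at least 5. For H3f3b these were Mlec, Snapin and Alcam, with r of 0.996, 0.994 and 0.992. Snapin had 16.5 and 13.5 in the controls, 28.3 and 23.3 after 15 min, and 16.9 and 10.8 after 60 min, the same order of libraries as H3f3b. For H1f0 they were Lbr, Ulk3 and Arhgef4, with r of 0.994, 0.992 and 0.992. Lbr had 56.8 and 56.7 in the controls, 60.4 and 58.5 after 15 min, and 52.8 and 46.2 after 60 min, a narrower range than that of H1f0. With so many genes and 6 libraries, correlations of this size are a description of these libraries only.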

How the data were processed

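Total RNA of 6 libraries was analysed, in 3 groups of 2. Libraries were made with a kit that depletes ribosomal RNA and were read single-end at 100 bp, per the labels' protocols. Tools were kallisto and sleuth and the build GRCm39, per the submitters' processing notes, with no version, annotation release, strand setting or summing to genes in the sources used here. The authors deposited a normalised signal per gene, named TPM, whose column totals differ between libraries, so each library carries a further factor, not described. It is not a count, so no depth, interval or detection limit was computed. Column names gave the group and a suffix, and columns were assigned to groups only.

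Symbols matched 52028 of 55538 identifiers. limma 3.58.1 in R 4.3.3 was fitted with a mean-variance trend to log2(value + 1) of the 21954 genes that averaged 1 or more. Group was the only term and all 6 libraries entered, leaving 3 residual degrees of freedom. A pseudocount of 1 understates differences of low genes. Sequences came from GENCODE transcripts and RefSeq promoters of GRCm38, which is not the authors' build. The members and lists were chosen with earlier results of these data known. In each list, genes past the threshold were named, or else up to 2 with the smallest unadjusted p and no overlap between groups, of which some are printed. Fn1, Gja1 and, at 60 min against control, Hist1h4n were chosen after their values were seen. Alternatives were 2 other scalings, other pseudocounts (0.1 and 5), other filters (none, or an average of 5), a replicate block, limma without trend or robust, only the 4 libraries compared, and each library left out. Scaling over genes with a mean of at least 20 was added after seeing the data. Of the windows found by the poly(A) signal search, 1 is not reported here.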

Additional observations from a re-analysis of the deposited data

Results flagged for a closer look

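H1f0 had opposite differences from control at both times. Its log2 difference was 0.29 at 15 min, where both libraries were above both controls, and −0.90 at 60 min, where both were below them. Under quantile normalisation the 15 min difference was 0.046, and 0.018 relative to the median of all genes. The 2 differences share the control libraries, and their difference is the direct comparison of 60 min with 15 min, −1.19 ± 0.27 (SE; limma adjusted p = 0.501), which did not pass over all genes tested. The share of all genes with such opposite differences without overlap was not counted. Groups of 2 libraries are too small for a search for single outlying libraries.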

How the results depend on the processing

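No replacement histone gene passed under any alternative. Of 297 single-gene values under the alternatives other than leaving out a library, 286 kept their direction and 11 reversed. Most of the 297 could not reverse, so this count does not measure stability. Other filters, the replicate block, limma without trend or robust, and only the 4 libraries compared leave a log2 difference unchanged by construction. All 11 reversals came from the other scalings. Median-of-ratios scaling over genes above 0 moved the median of all genes at 15 min against control from −0.098 to 0.17 and reversed H1fx (0.30), H2afx (0.015) and Cenpa (0.29) there, H3f3b (0.12) and Cenpa (0.15) at 60 min against control, and H2afv (−0.091) and Cenpa (−0.14) at 60 min against 15 min. Quantile normalisation reversed H2afz (−0.13) and H3f3a (−0.012) at 60 min against control and H2afy (0.022) at 60 min against 15 min, and scaling over genes with a mean of at least 20 reversed H2afy (0.085) there. The differences named for H1f0, and for H2afx at 60 min, kept their sign throughout, though H1f0 at 15 min was only 0.046 under quantile normalisation.

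The numbers of all genes called, 0, 9 and 4 in the 3 comparisons, became 7, 28 and 34 under median-of-ratios scaling. At 60 min against control the number was 5 with a pseudocount of 5, 5 without a filter and 2 with only the 4 libraries compared. At 60 min against 15 min it was 9 under quantile normalisation, 10 without a trend and 0 with only the 4 libraries compared.

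Leaving out 1 library, with the lone library left assumed to vary like the other groups, gave 0 to 216, 0 to 146 and 0 to 2 genes called, with 216 and 146 without control s2 and 41 and 48 without control s1. It gave 2 at 60 min against control without either 15 min library and 0 without either 60 min library. It reversed 18 of 162 single-gene values. Some of the 162 could not reverse, since leaving out a library that is not in a comparison does not change its log2 difference. At 15 min against control Cenpa ran from −0.29 to 0.19 and H1fx from −0.32 to 0.23. At 60 min against control Cenpa ran from −0.28 to 0.20, H2afz from −0.12 to 0.40, H3f3a from −0.053 to 0.41 and H3f3b from −0.37 to 0.21. At 60 min against 15 min Cenpa ran from −0.17 to 0.19, H2afv from −0.15 to 0.25, H2afy from −0.19 to 0.18 and H2afz from −0.46 to 0.063. The cause of these changes was not tested. Without reversing, H1f0 ran from 0.16 to 0.43 at 15 min and from −1.25 to −0.55 at 60 min against control, H2afx from −1.20 to −0.60 there, H3f3b from 0.46 to 0.77 at 15 min, and at 60 min against 15 min H1f0 from −1.54 to −0.84, H2afx from −0.87 to −0.27 and H3f3b from −0.98 to −0.40.

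The suffixes s1 and s2 are not stated to pair libraries, and the differences of s1 from s2 correlated between groups at 0.079, 0.102 and 0.224 over genes. With a replicate block by suffix, 0, 8 and 4 genes were called, none of them a replacement histone, and H1f0 had an adjusted p of 0.225 at 60 min against control.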
